A study of Mus musculus with 8 samples.

Results

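10 genes of the endoplasmic reticulum (ER) folding machinery and the unfolded protein response (UPR) were followed: Hspa5, Hsp90b1, Calr, Canx, Sdf2l1, Dnajb9, Pdia4, Pdia6, Herpud1 and Xbp1. They were taken by symbol, and 10 of 10 were found in each of 4 tables, which together held 16896 genes. TT-seq draws out the RNA that cells made during a short pulse of 4-thiouridine (4sU), here 5 min at 500 nM, so the values follow newly made RNA rather than the standing pool. The cells were ES-E14TG2a (E14), a male mouse embryonic stem cell line, and the mutant lines carried the K122A change (lysine to alanine) in the histone variant H3.3, which H3f3a and H3f3b both encode. Dual-targeted lines had 3 of 4 H3.3 alleles mutant and gave 3 libraries. For 2 of these, clone 1 and clone 2, the genotype was H3f3a A/A H3f3b WT/A, and for the third dual-targeted line it was H3f3a WT/A H3f3b A/A. Single-targeted lines had 2 mutant alleles and gave 2 libraries, 1 from H3f3a A/A H3f3b WT/WT and 1 from H3f3a WT/WT H3f3b A/A. Wildtype cells gave 3 libraries, which the study's design describes as biological replicates. With 1 library for each mutant line, differences between lines and between cultures are not separable within a mutant group. The labels name media with LIF alone and with LIF and 2 inhibitors and do not say which was used for these libraries. All groups were pulsed with 4sU. Defining stem cell transcripts were present, with mean normalized counts of 2301 for Pou5f1, 2644 for Sox2 and 2205 for Nanog per the authors' deposited table of dual-targeted and wildtype cells. The values come from the authors' own comparisons. Values per library were not analysed here, so the depth of each library is unknown and precision enters through the deposited standard errors.

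Secreted and membrane proteins fold in the ER with the help of chaperones and of enzymes that form disulfide bonds. When unfolded protein builds up there, the membrane sensors IRE1 (Ern1), PERK (Eif2ak3) and ATF6 signal to the nucleus. ATF6 and the spliced form of XBP1 raise transcription of chaperone genes, many of which carry an ER stress response element (ERSE) in their promoter, while PERK slows translation and favours ATF4.

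Promoter windows were compared first, because ERSE is the sequence through which several of these genes are known to be driven together. Each window ran from 250 bases before to 50 bases after the RefSeq gene start on GRCm38.p6. A window was at hand for 10 of 10 genes, though not for every gene of the tables. ERSE was searched on both strands as CCAAT and CCACG with 9 bases of any kind between them, ERSE-II as ATTGG and CCACG with 1 base between them, and the UPRE core, to which XBP1 can bind, as TGACGTGG. The CCAAT and CCACG boxes of ERSE were also searched alone, and every ERSE match contains both. An exact ERSE lay in the windows of 5 of the 10 genes, Hspa5, Hsp90b1, Calr, Canx and Pdia6, against 39 of all 32851 windows, or 0.119%. ERSE-II lay in that of Herpud1 and in 12 of all windows, or 0.0365%. The UPRE core was in 0 of the 10 windows and in 0.676% of all windows. A match is a description of letters and was not tested as a site. The matches follow in the orientation of the motif, 5′ to 3′, with the 2 fixed boxes in capitals. Hsp90b1 has 2 copies, of which the proximal one lies on the opposite strand to the gene, as does that of Calr.
Hspa5 ERSE: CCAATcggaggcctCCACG
Hsp90b1 ERSE, distal: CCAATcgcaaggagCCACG
Hsp90b1 ERSE, proximal: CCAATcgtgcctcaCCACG
Calr ERSE: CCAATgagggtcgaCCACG
Canx ERSE: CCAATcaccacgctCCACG
Pdia6 ERSE: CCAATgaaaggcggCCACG
Herpud1 ERSE-II: ATTGGgCCACG

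The element of Hspa5 began 65 bases before the RefSeq start, those of Hsp90b1 at 212 and 107 bases, that of Pdia6 at 98, that of Canx at 145 and that of Calr at 162. The Herpud1 ERSE-II began 52 bases before the start. Windows of Xbp1, Dnajb9, Sdf2l1 and Pdia4 held none of these 3 elements. Of the single boxes, CCAAT was in 9 of the 10 windows and in 37.4% of all windows, and CCACG was in 9 of 10 and in 32.8%. The windows of 4 genes are printed whole to show where the elements sit: the 2 genes with the largest rise described below, a disulfide isomerase that rose and the gene that fell. Capitals mark ERSE or ERSE-II, and each window reads 5′ to 3′ on the strand of its gene, so the proximal element of Hsp90b1 appears there as its reverse complement. RefSeq and GENCODE starts differed by 0 to 258 bases among the 10 genes, and the GENCODE start of Hspa5 lies 120 bases upstream of the RefSeq start used here.
Hspa5, chr2:34771840-34772139, plus strand: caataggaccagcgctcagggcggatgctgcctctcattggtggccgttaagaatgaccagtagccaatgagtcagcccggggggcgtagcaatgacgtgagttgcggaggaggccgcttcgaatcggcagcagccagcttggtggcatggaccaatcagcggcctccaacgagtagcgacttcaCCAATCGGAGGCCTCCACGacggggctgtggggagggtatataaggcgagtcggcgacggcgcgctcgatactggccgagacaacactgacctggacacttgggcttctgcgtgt
Hsp90b1, chr10:86705395-86705694, minus strand: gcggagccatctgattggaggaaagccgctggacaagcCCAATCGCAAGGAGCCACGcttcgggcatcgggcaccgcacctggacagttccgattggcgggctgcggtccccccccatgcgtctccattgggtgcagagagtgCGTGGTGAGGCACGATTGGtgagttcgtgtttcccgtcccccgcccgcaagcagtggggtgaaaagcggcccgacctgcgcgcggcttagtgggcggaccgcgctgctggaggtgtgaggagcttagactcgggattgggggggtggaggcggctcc
Pdia6, chr12:17266339-17266638, plus strand: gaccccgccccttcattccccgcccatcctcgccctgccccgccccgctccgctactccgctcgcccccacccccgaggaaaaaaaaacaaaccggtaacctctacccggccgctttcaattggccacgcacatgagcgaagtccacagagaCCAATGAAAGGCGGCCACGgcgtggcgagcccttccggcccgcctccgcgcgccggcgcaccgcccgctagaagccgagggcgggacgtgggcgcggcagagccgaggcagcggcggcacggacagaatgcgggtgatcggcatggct
Herpud1, chr8:94386179-94386478, plus strand: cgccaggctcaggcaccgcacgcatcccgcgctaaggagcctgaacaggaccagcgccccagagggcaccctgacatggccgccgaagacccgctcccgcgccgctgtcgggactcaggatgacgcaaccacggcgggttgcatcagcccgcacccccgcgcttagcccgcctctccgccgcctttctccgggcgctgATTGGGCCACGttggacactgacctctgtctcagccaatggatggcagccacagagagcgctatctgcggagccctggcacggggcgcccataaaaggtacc

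**Figure D1:**
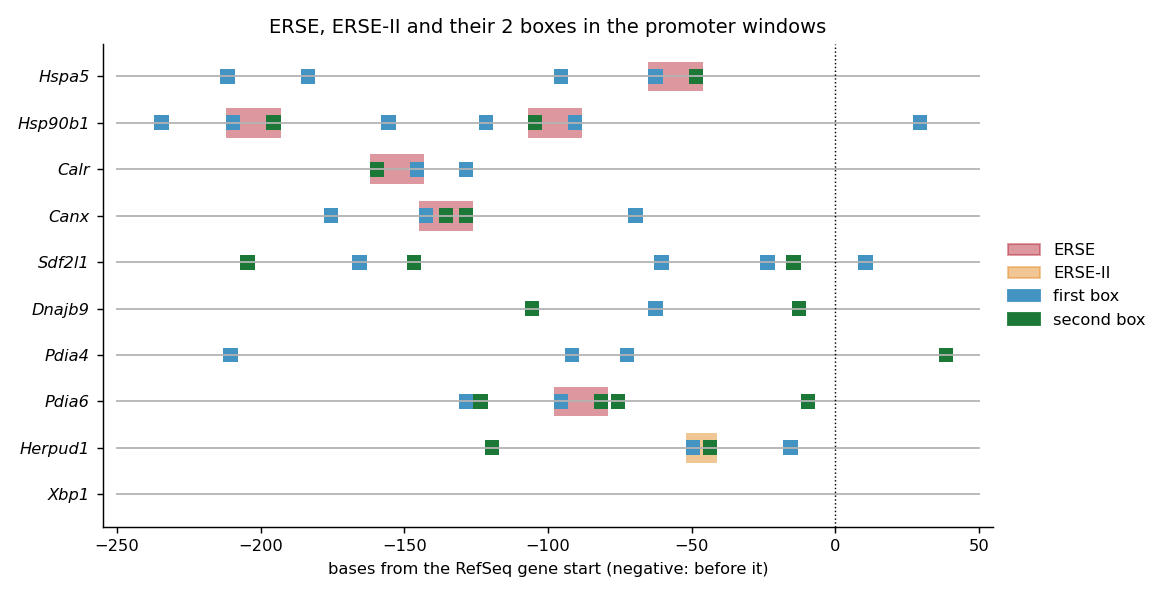
Positions of ERSE (red), ERSE-II (orange) and their first (blue) and second (green) boxes in the promoter windows of the 10 genes, in bases from the RefSeq gene start. An ERSE stands in the windows of Hspa5, Hsp90b1 (2 copies), Calr, Canx and Pdia6, and Xbp1 has neither box.

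Wildtype cells were the base against which dual-targeted lines were read, to ask how new RNA from these genes differed with 3 mutant alleles. The chaperones of the ER lumen Hspa5, Hsp90b1 and Calr and the disulfide isomerases Pdia4 and Pdia6 were higher in dual-targeted lines, by 1.40 to 2.37 times per the authors' deposited table. Herpud1, which serves ER-associated degradation, was lower, and Canx, Sdf2l1, Dnajb9 and Xbp1 were not called. At an adjusted p under 0.05, then, 5 of the 10 were called higher and 1 lower. Across all genes tested 20.9% were called, 10.8% higher and 10.1% lower. The median log2 fold change of the 10 genes was 0.38, beside 0.01 for all genes, and 8 of the 10 were above 0. In bulk cultures such as these, fewer cells making an RNA and less of it made per cell cannot be told apart.

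Hspa5 (BiP, ENSMUSG00000026864.13, chromosome 2, 34771970 to 34777547, GRCm38) encodes the main HSP70 chaperone of the ER, which also holds the stress sensors inactive. Means per group, solved from the means in the tables and so without an error, were 3195 normalized counts in the clones, 2927 in the third line, 1400 in single-targeted lines and 1260 in wildtype cells. Both means of dual-targeted lines stood well above those of the other groups. The mean of the third line is the least firm, since it moves most with the scaling between tables, and for Hspa5 it was 2477 without that scaling. The authors' deposited table gave a fold change of 1.24 ± 0.22 (log2, with its SE) for dual-targeted lines, adjusted p = 1.97e-07, with a 95% interval of 0.81 to 1.68. This placed Hspa5 193rd of 11561 genes whose mean count was at least 50, ordered from the highest fold change.

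Hsp90b1 (GRP94, ENSMUSG00000020048.13, chromosome 10, 86690209 to 86705509) encodes the HSP90 chaperone of the ER, which folds integrins and Toll-like receptors. Its rebuilt means were 5210 in the clones, 5007 in the third line, 2371 in single-targeted lines and 2500 in wildtype cells. Both means of dual-targeted lines were above those of the other groups, and the distance between them depended on the scaling, since without it they were 5277 in the clones and 4214 in the third line. In dual-targeted lines the log2 fold change was 0.97 ± 0.22 per the authors' deposited table (adjusted p = 4.82e-05). The locus overlaps 1810014B01Rik on the opposite strand over 4598 bases and Gm15344 on its own strand over 977 bases, and both are in the tables. Whether counting used strand is not stated in the submitters' notes, and reads of Hsp90b1 and these neighbours may be mixed.

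Calreticulin and calnexin are lectin chaperones that hold glycoproteins until they fold, the first free in the lumen and the second anchored in the membrane. Calr (ENSMUSG00000003814.8, chromosome 8, 84841850 to 84846934) had rebuilt means of 2175 in the clones, 1948 in the third line, 972 in single-targeted lines and 1409 in wildtype cells. The dual-targeted lines were highest and the single-targeted lines lowest. For Calr the authors' deposited table gave 0.49 ± 0.22 in dual-targeted lines, with an adjusted p of 0.0482, close to the threshold. Canx (ENSMUSG00000020368.15, chromosome 11, 50293961 to 50325673) lay closer to wildtype, with rebuilt means of 2965 in the clones, 3155 in the third line, 2460 in single-targeted lines and 2440 in wildtype cells. Without scaling between tables Canx stood at 3008 in the clones, 2569 in the third line and 2606 in wildtype cells. Its place in the third line, above or below wildtype, thus depended on the scaling. Its log2 fold change in dual-targeted lines was 0.27 ± 0.16 per the authors' deposited table (adjusted p = 0.189), with an interval of -0.05 to 0.60 that ends below the 0.81 at which that of Hspa5 begins. The difference between the 2 genes was not tested.

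Pdia4 and Pdia6 are protein disulfide isomerases, which make and rearrange disulfide bonds in client proteins. Rebuilt means of Pdia4 (ENSMUSG00000025823.9, chromosome 6, 47796141 to 47813430) were 948 in the clones, 876 in the third line, 469 in single-targeted lines and 519 in wildtype cells. It rose in dual-targeted lines by 0.76 ± 0.22 on the log2 scale per the authors' deposited table (adjusted p = 0.00197). For Pdia6 (ENSMUSG00000020571.12, chromosome 12, 17266545 to 17284770) the means were 1356 in the clones, 1591 in the third line, 866 in single-targeted lines and 968 in wildtype cells. The order of the clones and the third line was not stable, since without scaling between tables the means of Pdia6 were 1377 in the clones and 1343 in the third line. Its fold change in dual-targeted lines was 0.51 ± 0.19 per the authors' deposited table (adjusted p = 0.0183). Pdia4, which rose, had no exact ERSE in its promoter window, and Canx, which was not called, had one. The interval of Canx, which ends at 0.60, takes in the 0.51 of Pdia6. A link between the matches and the fold changes was not tested.

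Herpud1 (ENSMUSG00000031770.16, chromosome 8, 94386438 to 94395377) encodes a membrane protein of the complex that sends misfolded ER proteins to the proteasome, and is itself a UPR target. Rebuilt means were 135 in the clones, 135 in the third line, 190 in single-targeted lines and 268 in wildtype cells. Without scaling between tables they were 142 in the clones, 87.7 in the third line, 187 in single-targeted lines and 279 in wildtype cells, so the distance between the clones and the third line depended on the scaling. Of the steps between groups, neither dual-targeted against single-targeted lines (adjusted p = 0.277) nor single-targeted lines against wildtype (adjusted p = 0.557) was called per the authors' deposited tables, which leaves the place of single-targeted lines unresolved. Its log2 fold change in dual-targeted lines was -0.87 ± 0.28 per the authors' deposited table (adjusted p = 0.00345).

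Xbp1 (ENSMUSG00000020484.18, chromosome 11, 5520659 to 5525893) encodes the transcription factor that IRE1 activates by splicing its messenger RNA, so its total level does not show its activity. Its rebuilt means were 666 in the clones, 626 in the third line, 524 in single-targeted lines and 520 in wildtype cells. Without scaling between tables Xbp1 stood at 498 in the third line, below the 556 in wildtype cells. The authors' deposited table gave 0.27 ± 0.20 in dual-targeted lines (adjusted p = 0.276). Dnajb9 (ERdj4, ENSMUSG00000014905.4, chromosome 12, 44205559 to 44210326) encodes an ER J-domain cochaperone that represses IRE1 and is known as a sensitive XBP1 target. Its rebuilt means were 266 in the clones, 202 in the third line, 278 in single-targeted lines and 222 in wildtype cells, so that the dual-targeted lines lay on both sides of wildtype. It stood at 0.10 ± 0.20 per the authors' deposited table (adjusted p = 0.724), with an interval of -0.29 to 0.50. Sdf2l1 (ENSMUSG00000022769.9, chromosome 16, 17130138 to 17132383), which works with ER J-domain proteins, stood at -0.03 ± 0.22 per the same authors' deposited table (adjusted p = 0.922). Sdf2l1 had rebuilt means of 97.7 in the clones, 82.0 in the third line, 62.3 in single-targeted lines and 95.9 in wildtype cells. Its mean count of 94.2 in that table was the lowest of the 10 genes, and its interval reached from -0.47 to 0.40. For Xbp1, Dnajb9 and Sdf2l1 the intervals reach rises of 1.58, 1.42 and 1.32 times, and since they rest on shrunken values they do not exclude larger ones.

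**Figure D2:**
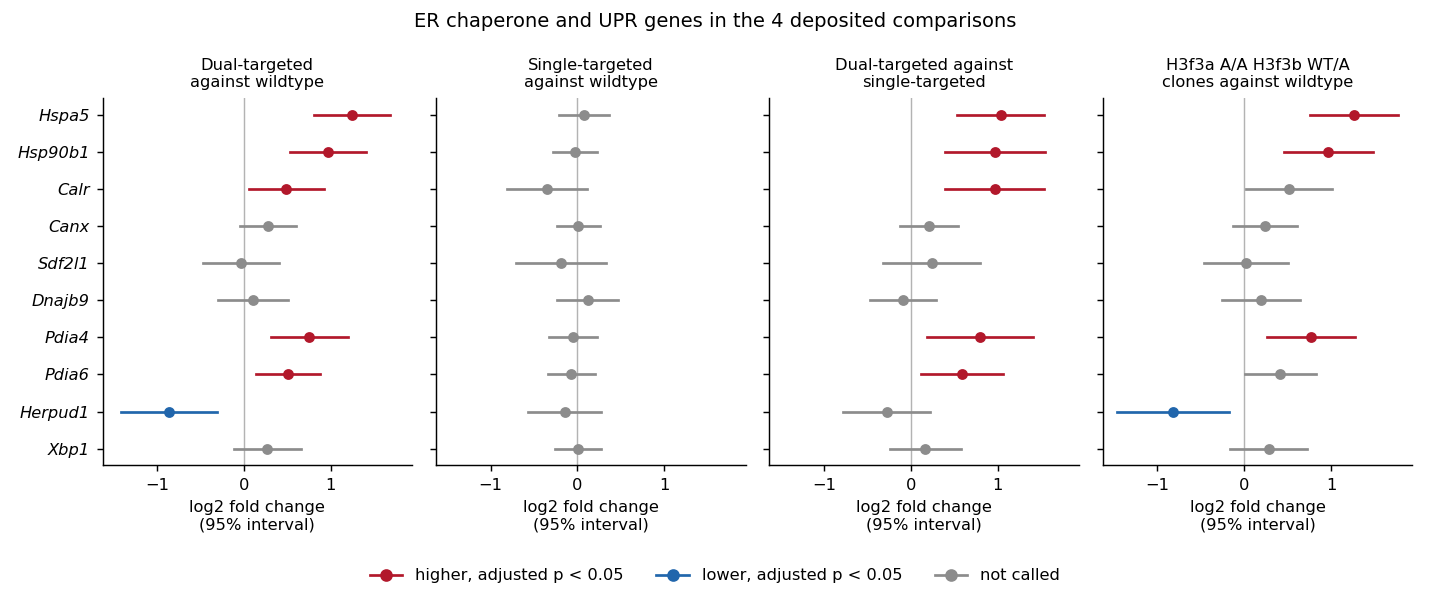
Deposited log2 fold change of the 10 genes (points) with the 95% interval (lines) in the 4 comparisons, red for genes called higher and blue for genes called lower. In dual-targeted lines against wildtype, Hspa5, Hsp90b1, Calr, Pdia4 and Pdia6 lie to the right of 0 and Herpud1 to the left, while all 10 intervals cross 0 in single-targeted lines against wildtype.

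The same wildtype libraries served as the base for single-targeted lines. Of the 10 genes, 0 were called higher or lower per the authors' deposited table made with DESeq2, where 2.96% of all genes tested were called, 1.49% higher and 1.47% lower. Calr alone had an unadjusted p under 0.05, at a log2 fold change of -0.35 ± 0.23 (adjusted p = 0.201 per the authors' deposited table). Calr and Herpud1 lie on chromosome 8, whose median in this comparison was -0.21. The median of the 10 genes was -0.04, beside 0.00 for all genes. For Hspa5 the authors' deposited table gave 0.08 ± 0.15 in single-targeted lines, with an interval of -0.21 to 0.36, whose upper end is 1.28 times. The rebuilt log2 ratio was 0.15 with the scaling between tables and -0.12 without it, so its sign depended on the scaling. Since the deposited value is read as shrunken, the interval does not exclude a larger rise. Hsp90b1 (-0.03 ± 0.13), Pdia4 (-0.05 ± 0.14) and Pdia6 (-0.07 ± 0.14) lay close to 0 per the authors' deposited table, with intervals ending at 0.23, 0.23 and 0.20. For the 3 least abundant genes the rebuilt means, which are not shrunken, gave log2 ratios of -0.50 for Herpud1, -0.62 for Sdf2l1 and 0.32 for Dnajb9. The authors' deposited table gave these genes -0.14, -0.19 and 0.12.

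Dual-targeted lines were also compared directly with single-targeted lines, which sets lines with 3 mutant alleles against lines with 2. With 1 library for each mutant line, the number of mutant alleles cannot be told apart from other differences between the lines. The 5 genes that rose against wildtype were called higher here as well, and 0 of the 10 were lower. Across all genes tested, 7.06% were called, 4.37% higher and 2.69% lower. With the threshold at 0.01, 3 of the 10 were higher, Hspa5, Hsp90b1 and Calr, where 1.35% of all genes were. These comparisons share their dual-targeted libraries, so the second is no independent repeat of the first. Hspa5 was 1.03 ± 0.26 (log2) higher in dual-targeted than in single-targeted lines per the authors' deposited table (adjusted p = 7.25e-04). For Hsp90b1 it gave 0.97 ± 0.30, adjusted p = 0.00498 per the authors' deposited table. Calr differed by about as much as Hsp90b1, at 0.96 ± 0.29 per the authors' deposited table (adjusted p = 0.00476). Pdia4 (0.80 ± 0.31, adjusted p = 0.0197) and Pdia6 (0.59 ± 0.24, adjusted p = 0.03) followed per the authors' deposited table. Herpud1, at -0.28 ± 0.26 (adjusted p = 0.277), was not called between dual-targeted and single-targeted lines per the authors' deposited table, with an interval of -0.78 to 0.22. Canx, Xbp1, Dnajb9 and Sdf2l1 were not called either, with values from -0.09 for Dnajb9 to 0.24 for Sdf2l1 per the authors' deposited table. For Sdf2l1 the rebuilt means, which are not shrunken and carry no error, gave a larger log2 ratio of 0.57.

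Clone 1 and clone 2 were also compared with wildtype on their own. Of the 10 genes, 3 were higher and 1 lower, where 19.3% of all genes tested were called, 9.05% higher and 10.3% lower. Hspa5 (1.27 ± 0.26, adjusted p = 5.53e-06), Hsp90b1 (0.97 ± 0.26, adjusted p = 5.58e-04) and Pdia4 (0.77 ± 0.26, adjusted p = 0.00678) were higher in the clones per the authors' deposited table. Herpud1 was lower at -0.82 ± 0.33 (adjusted p = 0.014 per the authors' deposited table). Without the third line Calr (0.52 ± 0.26, adjusted p = 0.0709) and Pdia6 (0.42 ± 0.21, adjusted p = 0.0963) missed the threshold per the authors' deposited table, where over all dual-targeted lines they stood at 0.49 and 0.51. The clones share wildtype and their own libraries with the comparison of all dual-targeted lines. With the scaling between tables, the line left out (1 library) had rebuilt log2 ratios to wildtype of 1.22 for Hspa5 and 1.00 for Hsp90b1. They were 0.76 for Pdia4, 0.72 for Pdia6 and 0.47 for Calr. These sizes depend on the scaling. Without it the means of Calr were 1569 in that line and 1503 in wildtype cells. Those of Pdia4 were 724 and 560, and those of Pdia6 1343 and 1037. For Hspa5 they were 2477 and 1389, and for Hsp90b1 4214 and 2719. Herpud1 stood at -0.99 in that line and at -0.99 in the clones, with the scaling between tables. The gene that differed most between the clones and that line was Dnajb9, by 0.40 on the log2 scale, a size that also depends on the scaling (269 in the clones and 149 in the third line without it). No test of that difference was possible from these tables.

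**Figure D3:**
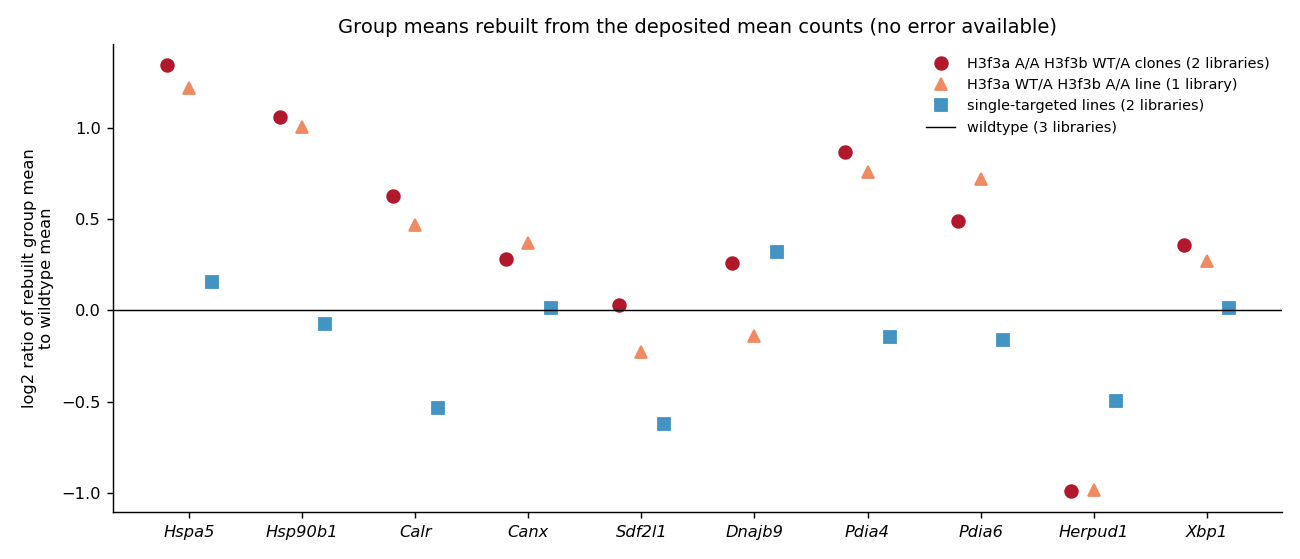
Log2 ratio of the rebuilt mean of each mutant group to the wildtype mean for the 10 genes, with clones 1 and 2 (red circles), the third dual-targeted line (orange triangles) and single-targeted lines (blue squares). The means carry no error. With the scaling between tables, both kinds of dual-targeted line stand above wildtype for Hspa5, Hsp90b1, Calr, Pdia4 and Pdia6 and at -0.99 for Herpud1.

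Calr and Herpud1 both lie on chromosome 8, whose genes were lower as a body in mutant lines. Among 626 chromosome 8 genes whose mean count was at least 50 the median log2 fold change in dual-targeted lines was -0.32, with 230 called lower and 30 higher. The median was 0.02 over 10810 genes of the other autosomes and X. In single-targeted lines the chromosome 8 median was -0.21, and with it subtracted Calr stood at -0.13 and Herpud1 at 0.07. Between dual-targeted and single-targeted lines the chromosome 8 median was 0.02. Calr in dual-targeted lines was above 595 of these 626 genes, and with their median subtracted its log2 fold change was 0.81. Herpud1 was below most of them, with 88 of the 626 lower still, and stood at -0.54 with their median subtracted. The part that the chromosome's level plays in the values of these 2 genes was not tested. With both genes left out, dual-targeted lines had 4 of 8 genes called higher and 0 lower, with a median of 0.39. Among the 10810 genes of the other autosomes and X, 12.6% were called higher and 9.87% lower.

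**Figure D4:**
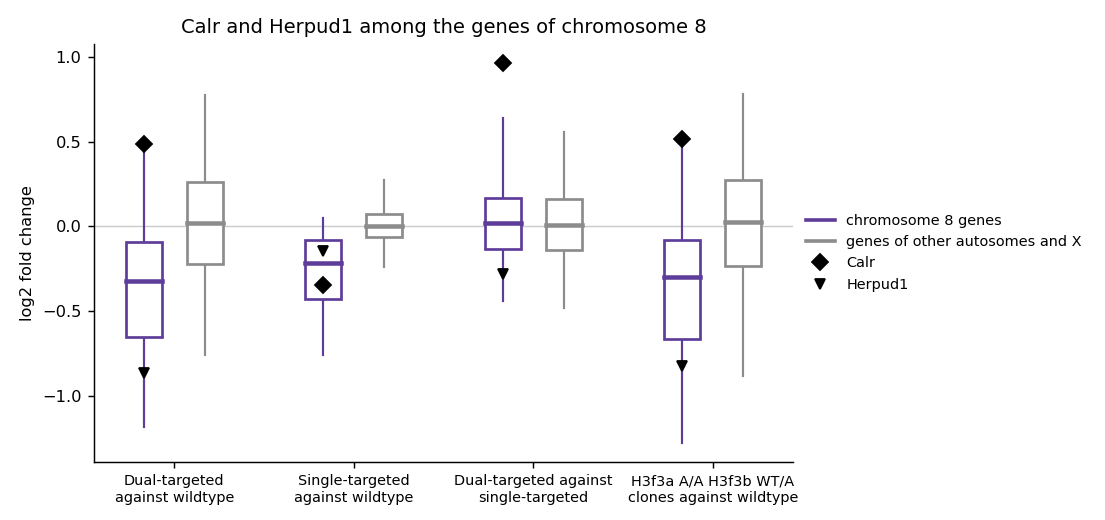
Log2 fold change of Calr (diamonds) and Herpud1 (triangles) beside the genes of chromosome 8 (purple) and of the other autosomes and X (grey), for genes whose mean count was at least 50. Boxes span the quartiles with the median as a bar, and lines run from the 5th to the 95th percentile. The chromosome 8 median was -0.32 in dual-targeted lines against wildtype.

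The wider ER machinery was read through 7 lists, in which the 10 genes are included. Folding genes of the ER were higher at 6 of 25 and lower at 1 in dual-targeted lines, with a median log2 fold change of 0.10. Across all genes tested 10.8% were higher and 10.1% lower. Without the 10 genes, which were chosen, the list had 3 of 19 higher (15.8%) and 1 lower, with a median of 0.05. The gene that fell was Sil1, a nucleotide exchange factor of BiP, named here after its value was seen. Besides the 10 genes, the cochaperone Dnajb11 (ERdj3, 0.78 ± 0.21, adjusted p = 5.54e-04) rose per the authors' deposited table. So did Creld2 (0.84 ± 0.27, adjusted p = 0.00326 per the authors' deposited table), an ER-resident protein induced by stress. Manf (0.72 ± 0.21, adjusted p = 0.00166), a secreted factor that binds BiP, did so too per the authors' deposited table. Creld2 has an ERSE in its promoter window and Dnajb11 an ERSE-II. All 3 were also higher against single-targeted lines per the authors' deposited table (adjusted p of 0.0165 for Dnajb11, 0.0287 for Creld2 and 0.00337 for Manf). In that comparison 7 of 25 folding genes were higher and 0 lower, where 4.37% of all genes tested were higher. Without the 10 genes, 4 of 18 genes with an adjusted p were higher (22.2%), with a median of 0.06. Hyou1, an HSP70-related chaperone that works with BiP, was among the risers, named after its value was seen.

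Disulfide-forming enzymes were higher at 3 of 16 and lower at 1 in dual-targeted lines, with a median of 0.07. Without Pdia4 and Pdia6, which are among the 10 genes, 1 of 14 was higher (7.14%) and 1 lower, beside 10.8% higher and 10.1% lower over all genes tested. Pdia3 (ERp57, the partner of calreticulin and calnexin) was 0.80 ± 0.21 higher (adjusted p = 3.51e-04) per the authors' deposited table. Ero1l, the oxidase that recharges these isomerases and is also induced by low oxygen, was lower at -0.65 ± 0.27 (adjusted p = 0.0228 per the authors' deposited table). Its rebuilt means were 136 in the clones, 265 in the third line (212 without scaling), 228 in single-targeted lines and 307 in wildtype cells. Ero1l lies on chromosome 14, and its -1.08 in the clones became -0.57 with the median of that chromosome subtracted. The part of that chromosome's level was not tested. Genes of ER-associated degradation were higher at 0 of 23 and lower at 2, with a median of -0.05 and 3 at an unadjusted p under 0.05 in DESeq2. Besides Herpud1, the gene that fell was Edem2 (-0.64 ± 0.26, adjusted p = 0.0199 per the authors' deposited table), which helps mark misfolded glycoproteins for degradation. Without Herpud1 the list had 1 of 22 called (4.55%), below the 20.9% called over all genes.

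Sensors and signalling genes were higher at 3 of 17 and lower at 3 in dual-targeted lines, with a median of 0.12. That is 17.6% each way, beside 10.8% higher and 10.1% lower over all genes tested. Of these 6, Bax and Mbtps2 are named after their values were seen. The sensor genes themselves were not called, with -0.32 ± 0.19 for Ern1 (adjusted p = 0.163), 0.12 ± 0.20 for Eif2ak3 (adjusted p = 0.664) and 0.26 ± 0.17 for Atf6 (adjusted p = 0.241) per the authors' deposited table. Mbtps1, the Golgi protease that releases active ATF6, was lower at -0.57 ± 0.16 (adjusted p = 0.00117 per the authors' deposited table), and it too lies on chromosome 8. Creb3l2, a transcription factor related to ATF6 that is held in the ER membrane, was lower at -1.50 ± 0.35 (adjusted p = 4.96e-05 per the authors' deposited table). Its relative Creb3l1 was higher in dual-targeted lines at 0.80 ± 0.34 (adjusted p = 0.018) and in single-targeted lines at 0.92 ± 0.42 (adjusted p = 0.0437), per the authors' deposited table. Rtcb, the ligase that joins the exons of Xbp1 RNA after IRE1 cuts it, was 0.53 ± 0.18 higher in dual-targeted lines per the authors' deposited table (adjusted p = 0.00922). Against single-targeted lines Creb3 (0.74 ± 0.38, adjusted p = 0.0462 per the authors' deposited table) was also called.

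Of the PERK and ATF4 arm, 2 of 15 genes were called higher and 2 lower (13.3% each way) when dual-targeted lines were compared with wildtype, with a median of -0.03. This is close to the 10.8% higher and 10.1% lower over all genes tested. The second riser, named after its value was seen, was Eif2s1, the initiation factor subunit that PERK phosphorylates. Atf4 itself was 0.60 ± 0.23 higher (adjusted p = 0.0156 per the authors' deposited table), though ATF4 is governed mainly at translation. Chac1, a glutathione-degrading ATF4 target, was lower at -0.96 ± 0.33 (adjusted p = 0.00443), and the lipoprotein receptor gene Vldlr was lower at -0.92 ± 0.42 (adjusted p = 0.0185), per the authors' deposited table. Between dual-targeted and single-targeted lines, 0 of these 15 genes were higher and 4 lower, where 4.37% of all genes tested were higher and 2.69% lower, and 7 of the 15 had an unadjusted p under 0.05 in DESeq2. Chac1 led them at -1.38 ± 0.38 (adjusted p = 0.00222 per the authors' deposited table), while Cebpb, which encodes a stress-responsive transcription factor, was lower at -1.12 ± 0.51 (adjusted p = 0.0287 per the authors' deposited table). In single-targeted lines Cebpb was higher than in wildtype at 1.61 ± 0.43 (adjusted p = 0.00114 per the authors' deposited table). Dual-targeted lines had Cebpb at 0.19 ± 0.30 against wildtype, not called (adjusted p = 0.561 per the authors' deposited table). Cebpb was the 1 gene of the 15 called in single-targeted lines, where 1.49% of all genes tested were higher. There 14 of the 15 genes stood above 0, with a median of 0.11, beside 0.00 for all genes.

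Genes that bring proteins into the ER and glycosylate them were higher at 3 of 31 and lower at 0 in dual-targeted lines, with a median of 0.21 and 7 at an unadjusted p under 0.05. The share higher, 9.68%, is near the 10.8% over all genes tested. Srpr, a receptor subunit for the signal recognition particle, was 0.82 ± 0.21 higher (adjusted p = 2.67e-04) per the authors' deposited table. The small translocon subunits Sec61b (0.78 ± 0.29, adjusted p = 0.01) and Sec61g (0.71 ± 0.24, adjusted p = 0.00577) rose per the authors' deposited table. Genes of ER to Golgi transport were higher at 2 of 20 and lower at 0, with a median of 0.05 and 5 at an unadjusted p under 0.05. That count too is near the 10.8% of all genes that were higher. The 2 that rose were Sec13 (0.51 ± 0.20, adjusted p = 0.0216), a coat subunit, and Surf4 (0.53 ± 0.22, adjusted p = 0.03), a cargo receptor, per the authors' deposited table. In single-targeted lines against wildtype, 2 of 147 genes over the 7 lists were called, where 2.96% of all genes tested were, and 12 had an unadjusted p under 0.05.

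**Figure D5:**
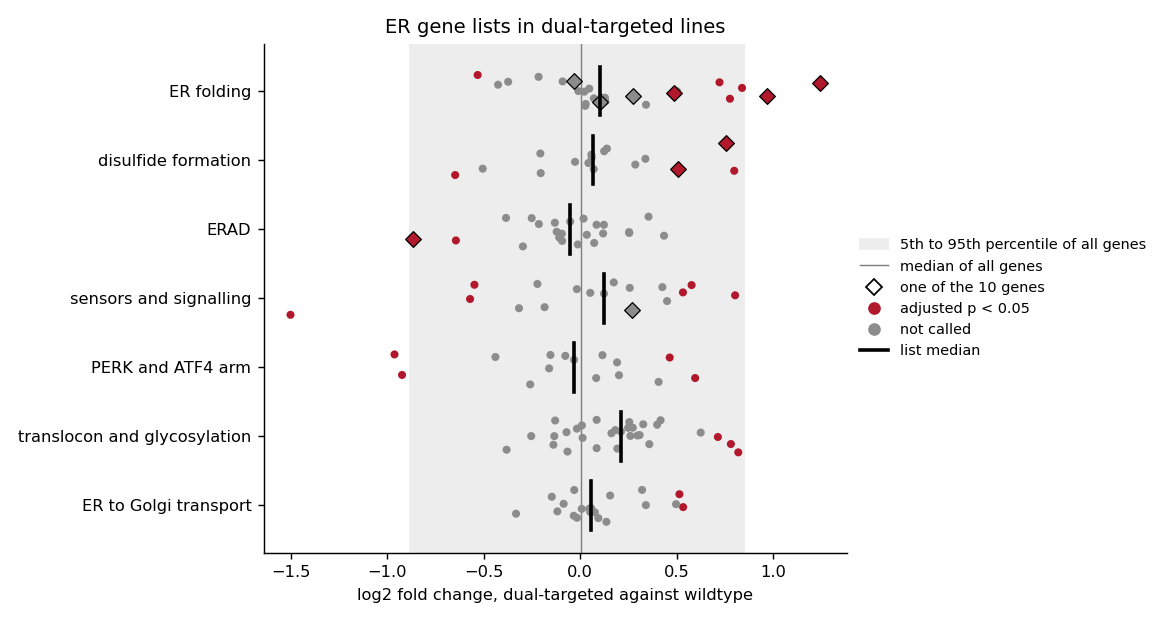
Deposited log2 fold change of each gene of the 7 ER lists in dual-targeted lines against wildtype, red where called and grey where not, with diamonds for the 10 genes and a black bar for the list median. The grey band spans the 5th to the 95th percentile of all genes. The furthest right are Hspa5 at 1.24 and Hsp90b1 at 0.97.

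Cytosolic chaperones gave a second point of reference. Hsph1, a nucleotide exchange factor of cytosolic HSP70, was 1.30 ± 0.17 higher in dual-targeted lines (adjusted p = 2.43e-12), and Hsp90ab1, the constitutive cytosolic HSP90, was 0.48 ± 0.21 higher (adjusted p = 0.0419), per the authors' deposited table. Hspa8, the constitutive cytosolic HSP70, stood at 0.22 ± 0.20 (adjusted p = 0.395 per the authors' deposited table). Against single-targeted lines all 3 were called higher per the authors' deposited table, with adjusted p of 1.47e-04 for Hsph1, 0.0125 for Hsp90ab1 and 0.0349 for Hspa8.

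The ERSE matches were then read across all genes with a window rather than within the chosen genes, a step added after the values were seen. Of 37 genes with an ERSE in a promoter window, 18 were in the table of dual-targeted and wildtype cells, with 6 higher and 0 lower, 4 of the 6 being among the 10 genes. Apart from Calr, Hsp90b1, Hspa5 and Pdia6, the risers were Creld2 and Zfp57, a zinc finger protein that guards imprints (0.66 ± 0.20, adjusted p = 0.00228 per the authors' deposited table). Without the 10 genes, 2 of 13 were higher (15.4%), beside 10.8% over all genes tested, and the median log2 fold change was -0.01. Those with an ERSE that were not called included Dnajc3 (0.13 ± 0.19, adjusted p = 0.64), an ER cochaperone, and Syvn1 (-0.01 ± 0.20, adjusted p = 0.971), the ubiquitin ligase of ER-associated degradation, per the authors' deposited table. Among the folding and disulfide lists together, an ERSE was in the window of 5 of the 8 genes that rose and had a window, and of 2 of the 25 others that had a window. Hspa5, Hsp90b1, Calr and Pdia6 among these risers, and Canx among the others, belong to the 10 chosen genes. Apart from the 10 genes, only Creld2 among the risers and Dnajc3 among the others had an ERSE. A link between ERSE and the rises was not tested.

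The 10 genes were also read against protein-coding genes of like length. Hspa5 spans 5.58 kb, and the 632 genes of its length bin had a median log2 fold change of 0.14 in dual-targeted lines. Bin medians for the 10 genes ran from -0.01 for the 31.7 kb of Canx to 0.18 for the 4.77 kb of Dnajb9. Xbp1 and Calr share the length bin of Hspa5, and their fold changes per the authors' deposited table were 0.27 and 0.49, against 1.24 for Hspa5. The part of gene length in these values was not tested.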

How the data were processed

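Per the submitters' processing notes, STAR, SAMtools, featureCounts, DESeq2 and deepTools were used, with the builds mm10 and GRCm38.p6. Tool versions and strand settings are not stated there. Each of 4 tables holds, per the file headers, a mean normalized count (a signal averaged by the authors over the libraries in that table), a deposited log2 fold change with its standard error, and deposited p-values and adjusted p-values. The log2 fold changes are read as shrunken by the authors, because 100% of called genes had a fold change smaller than its p implies, so sizes in different tables are not strictly comparable. Positive means higher in the group named first. This was checked against rebuilt group means, whose sign was the same for 100% of 2726, 387, 885 and 2504 called genes whose mean count was at least 50.

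Genes were called at an adjusted p under 0.05. The 95% intervals are normal ones from the deposited standard errors. Group means were solved from the 4 means and the numbers of libraries, after scales of 0.978, 1.05 and 0.958 set the median gene of each group equal to wildtype. They carry no error and assume that 1 scale per table relates the tables. Across the 15571 genes in all tables, 2 had a rebuilt mean at or below 0. Gene positions and lengths came from GENCODE mouse release 21 (GRCm38), promoter windows from RefSeq (GRCm38.p6). Length context used 20 bins of protein-coding genes. The 10 genes, the 7 lists and the tests were chosen with earlier results of these data known. Named genes were the 10, up to 3 other called genes of each list and comparison by p, the sensors Ern1, Eif2ak3 and Atf6, and Hspa8, Hsp90ab1 and Hsph1. Zfp57, Dnajc3, Syvn1, Sil1, Hyou1, Bax, Mbtps2 and Eif2s1 were named after their values were seen. Adjusted p-values are the authors' own, over all genes of a table. Alternatives are described in the closing section. Protein sequences were not analysed here. Tables were read with pandas 2.3.3 and numpy 2.4.6 under Python 3.11.15, and figures were drawn with matplotlib 3.10.9.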

Additional observations from a re-analysis of the deposited data

Results flagged for a closer look

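For these genes the direct comparison of dual-targeted with single-targeted lines, which tests whether their effects against wildtype differ, passed an adjusted p under 0.05 in DESeq2. All values are log2 fold changes from the authors' deposited table of that comparison. Of the 10 genes, Hspa5 stood at 1.03, Hsp90b1 at 0.97, Calr at 0.96, Pdia4 at 0.80 and Pdia6 at 0.59. Among other ER folding and disulfide genes, Dnajb11 stood at 0.70, Manf at 0.93, Creld2 at 0.83 and Pdia3 at 0.61 in the authors' deposited table. Of the signalling genes, Rtcb stood at 0.62 and Creb3 at 0.74, while in the PERK and ATF4 arm Chac1 stood at -1.38, Vldlr at -1.31 and Cebpb at -1.12, in the authors' deposited table. Srpr of the translocon list stood at 0.62 and Surf4 of the transport list at 0.74 in the authors' deposited table. The cytosolic chaperones Hspa8, Hsp90ab1 and Hsph1 stood at 0.46, 0.64 and 0.92 in the authors' deposited table.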

How the results depend on the processing

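At an adjusted p under 0.01 the genes called higher in dual-targeted against single-targeted lines numbered 3 of the 10, against 5 at 0.05. Over all genes tested the shares higher were 1.35% and 4.37%. At 0.01 the genes higher in dual-targeted lines against wildtype numbered 3, against 5 at 0.05, where 6.26% and 10.8% of all genes tested were higher. At 0.1 those higher in the clones numbered 5, against 3 at 0.05, where 12% and 9.05% of all genes tested were higher. Taken in both directions together, the other 3 counts of called genes at 0.01, and all 4 under an adjusted p of 0.1, under an adjustment over every deposited p, off chromosome 8 and at mean counts of at least 50, stayed within 1.5 times. Without dual_targeted replicate 3 (the third line), Calr at 0.52 and Pdia6 at 0.42 lost their calls against wildtype, Sdf2l1 stood at 0.018, against -0.03 with that line, and was called in neither, and the median of the 10 genes moved to 0.35. No other library could be left out, since the tables hold no values per library. All medians of the 10 genes moved by less than their median standard error under each alternative, which were rebuilt means, centring on all genes, on the chromosome or on genes of like length, and leaving out chromosome 8. Without scaling between tables the rebuilt mean of the third line, which rests on differences of several means, moved by more than the standard error for 10 of 10 genes, so its levels are the least firm. Scales set on genes whose mean count was at least 50, added after the data were seen, moved 0 of 50 rebuilt means that far. No paired analysis was possible because the tables hold no values per library and the labels pair no libraries between groups. Depth per library is unknown. Sdf2l1 had the lowest mean count of the 10 genes in each table.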
